A study of Xenopus laevis with 14 samples.

Results

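The homeobox genes nkx6-2 and mnx1 were followed in anterior endoderm of Xenopus laevis that had been made to express extra Ptf1a. Every probe set whose annotated gene symbol, without its .L or .S ending, is nkx6-2 or mnx1 was taken. That gave 6 of 24218 probe sets, which read 2 of 8030 named genes. A probe set of the Xl2Affx class, called here the Xl2Affx probe set, and Xl2.55860.1.S1_s_at are annotated to nkx6-2.L, Xl2.55426.1.S1_at to mnx1.L, and Xl2.286.1.S1_a_at, Xl2.286.1.S1_x_at and Xl2.286.2.S1_x_at to mnx1.S. The endings .L and .S name the copies of a gene on the long and short subgenomes of this tetraploid frog. All 6 had values at stage NF36 and 5 at stage NF32, where Xl2.55860.1.S1_s_at had none.

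Both genes encode homeodomain transcription factors used by pancreas and by the ventral nervous system. In the mouse, Nkx6-2 belongs to a family with Nkx6-1 that acts in pancreatic progenitors and contributes to endocrine cell formation, and it also patterns the ventral spinal cord. Mnx1, also called Hb9, is needed in the mouse for the dorsal pancreatic bud and later in beta cells, and it is a classical factor of motor neurons. Ptf1a is a basic helix-loop-helix factor of the exocrine pancreas lineage and of inhibitory neurons.

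Control embryos had received 400 pg of GFP mRNA in both dorsal vegetal blastomeres at the 8-cell stage, and the Ptf1a group 400 pg of GFP mRNA together with 800 pg of Ptf1a mRNA, so the groups differed in total mRNA as well. Anterior endoderm was dissected at the tailbud stages NF32 (3 arrays per group) and NF36 (4 arrays per group), each array holding RNA of about 15 pooled explants. Same-numbered GFP and Ptf1a arrays came from the same batch of embryos and are called a pair. The injected mRNA was not restricted to pancreas cells, and no source used here states the strain or sex. Values are probe set intensities as deposited, with array means of 140.19 to 140.36 at NF32 and 100 at NF36, so the stages were scaled apart and levels are not compared between them. The ptf1a probe set read 7.7 to 18.3 in GFP and 209.5 to 386 in Ptf1a arrays of NF32, and 25.5 to 33.3 against 117.2 to 319.4 at NF36, so the groups did not overlap at either stage. In GFP arrays of NF32 the endoderm genes gata6.S (428 ± 10.3, SD, n = 3) and darmin.L (2771 ± 218) were bright, and so were markers of other tissues, such as the epidermal keratin gene krt12.4.S (3804 ± 155). Epidermis markers summed to 15436 to 18075 over 21 copies in these arrays and blood markers to 7073 to 12357 over 19, against 3321 to 4336 over 12 stomach and intestine copies. Sums over different probe sets and numbers of copies do not measure amounts of tissue. The genes pdx1 and nkx6-1 were on the gene lists used below, but no copy of either was among those measured.

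The genes were chosen by their measured changes in an earlier look at these arrays, mnx1.L for its higher values at NF32 and nkx6-2.L for its lower values at NF36 and the difference between stages. Their changes are therefore given as a description, without p-values. Changes are log2 change ± SE, Ptf1a minus GFP, on log2(intensity + 16), a scale that understates the change of dim probe sets. A probe set is said to have passed when limma gave it an adjusted p under 0.05, with every probe set measured at that stage in the adjustment. At NF32 3.16% of all probe sets passed, 1.96% higher and 1.2% lower, and at NF36 5.48%, 3.59% higher and 1.89% lower. With the pair as a block 5.03% passed higher and 4.19% lower at NF32, and 12.6% and 10.8% at NF36. At an unadjusted p under 0.05, 8.55% were higher and 7.61% lower at NF32, and 11% and 8.61% at NF36. Of the 5 nkx6-2 and mnx1 probe sets at NF32, mnx1.L passed, higher, and of the 6 at NF36, the Xl2Affx probe set of nkx6-2.L passed, lower. These are the values that chose the genes, so nothing is read from their calls.

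nkx6-2.L lay higher in Ptf1a explants at NF32 and lower at NF36. At NF32 the GFP arrays read 14.6, 12.6 and 7.4 on the Xl2Affx probe set, and the Ptf1a arrays read 37.6, 29.5 and 22.8. All 3 Ptf1a arrays lay above all 3 GFP arrays, as they did for 10.7% of all probe sets. The group means were 11.5 ± 3.72 and 30.0 ± 7.41 (SD, n = 3 each), a ratio of 2.60. The fitted change of 0.74 ± 0.15 did not pass, whereas with the pair as a block it was 0.74 ± 0.06 and passed.

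The 3 pairs of NF32 gave log2 changes in nkx6-2.L of 0.81, 0.67 and 0.73. The GFP array with the lowest value belonged to the same embryo batch as the Ptf1a array with the lowest value, and the GFP array with the highest value to the batch of the highest Ptf1a array. The probe set was dim in control tissue at this stage. All 3 GFP values were below the lower quartile of their arrays, which was 22.2 to 23.5 over the 6 arrays of NF32, and so was the Ptf1a array of the third pair.

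At NF36 the same probe set of nkx6-2.L read 112.6, 138.3, 133.3 and 133.6 in GFP arrays and 71.1, 77.5, 72.1 and 55.3 in Ptf1a arrays. Ranked by intensity within each array, the GFP values lay at percentiles 80.1 to 84.1 and the Ptf1a values at 63.3 to 72.2. The probe set was thus bright within the control arrays of NF36. Such ranks hold within the arrays of 1 stage. As the stages were scaled apart, no change in level from NF32 is read. The groups did not overlap, with every Ptf1a array below every GFP array, as for 5.49% of all probe sets. Means were 129 ± 11.5 and 69.0 ± 9.56 (SD, n = 4 each), a ratio of 0.533. The change was -0.78 ± 0.10, and it passed both with and without the pair as a block. By pair it was -0.56, -0.72, -0.76 and -1.07, the last from the Ptf1a array with the lowest value. In bulk RNA of dissected explants, fewer cells that express a gene and less RNA per cell cannot be told apart.

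**Figure D1:**
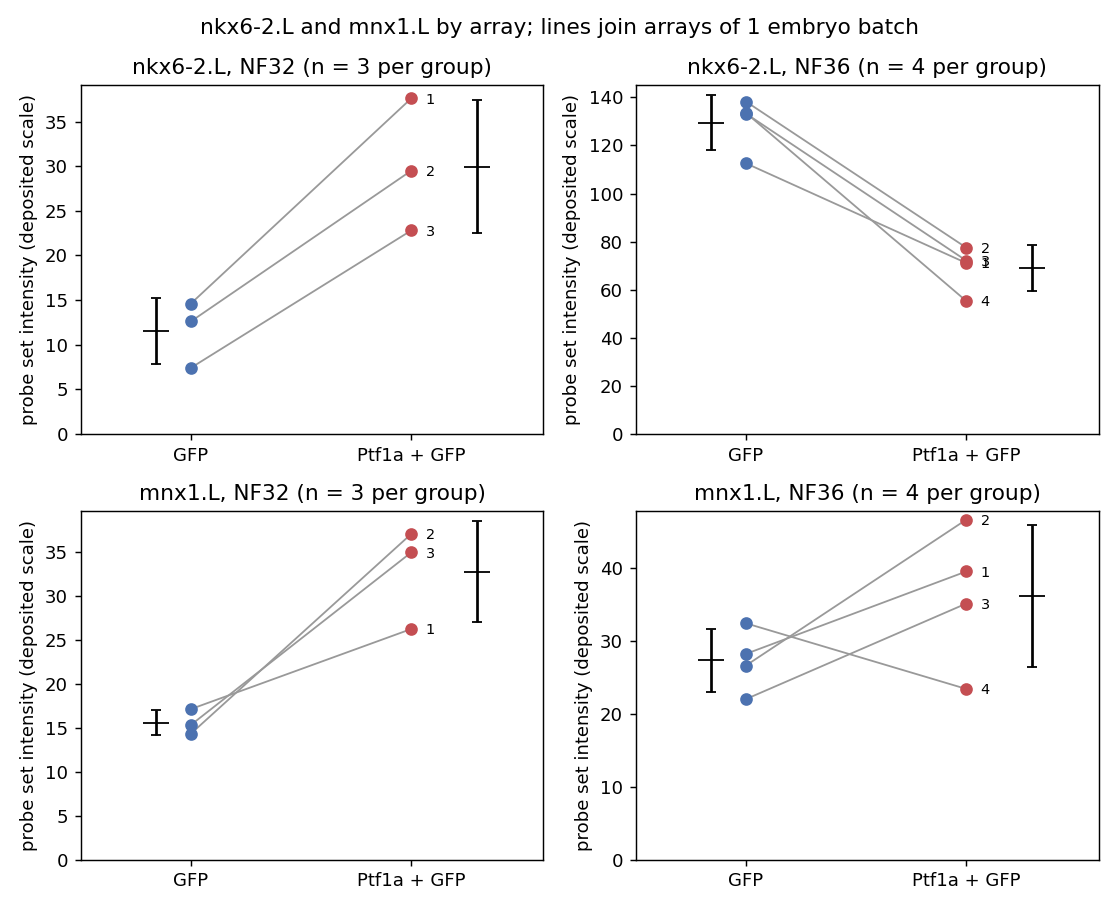
Probe set intensity (y axis, deposited scale, starting at 0, a separate scale in each panel) of nkx6-2.L (Xl2Affx probe set, top) and mnx1.L (Xl2.55426.1.S1_at, bottom) at NF32 and NF36. Points are arrays, lines join the GFP and Ptf1a arrays of 1 pair (numbered), and black bars are mean ± SD. For nkx6-2.L every line goes up at NF32 and down at NF36, and for mnx1.L all lines go up except that of pair 4 at NF36, from 32.4 to 23.4.

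The second probe set of nkx6-2.L, Xl2.55860.1.S1_s_at, was dim at NF36. It read 5.9, 13.8, 17.5 and 11.2 in GFP arrays and 4.6, 9.2, 11.0 and 6.7 in Ptf1a arrays. The groups overlapped, and the Ptf1a array was below its GFP partner in all 4 pairs. The share of all probe sets with this pattern at NF36 was not counted. The change of -0.23 ± 0.14 did not pass. With the pair as a block it was -0.23 ± 0.05 and passed lower, as 10.8% of all probe sets did. Both nkx6-2 probe sets end in _s_at, the chip maker's mark for probes shared by several transcripts, so they may also read the .S copy of nkx6-2.

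The difference of the Ptf1a effect on nkx6-2.L between stages was -1.51 ± 0.18 (NF36 minus NF32), over probe sets measured at both stages, of which 0.777% passed, 0.342% lower. The gene was chosen for this difference, so its size is a description. Among these 22251 probe sets, 228 (1.02%) had the Ptf1a array above its partner in every pair of NF32 and below it in every pair of NF36, as nkx6-2.L did. For 11 (0.0494%) the groups also did not overlap at either stage, nkx6-2.L included. No probe set passed higher at NF32 and lower at NF36 in limma without the pair term, where nkx6-2.L missed through its NF32 value, against 12 at an unadjusted p under 0.05 at both stages. With the pair as a block 10 did, nkx6-2.L among them.

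mnx1.L was higher in Ptf1a explants at NF32. Its GFP arrays read 17.1, 14.3 and 15.3 and its Ptf1a arrays 26.2, 37.0 and 34.9. Every Ptf1a array lay above every GFP array, as for 10.7% of all probe sets, and the Ptf1a array of pair 1 stood closest to the controls. Means were 15.6 ± 1.42 and 32.7 ± 5.73 (SD, n = 3 each), a ratio of 2.10. The change was 0.62 ± 0.10 and passed, as it did with the pair as a block (0.62 ± 0.10). Of 6 refits, each lacking 1 array, it passed in 1, the one without Ptf1a replicate 1, and the 6 changes ran from 0.56 to 0.72.

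At NF36 mnx1.L read 28.2, 26.6, 22.0 and 32.4 in GFP arrays and 39.5, 46.6, 35.1 and 23.4 in Ptf1a arrays. In 3 pairs the Ptf1a array was above its partner, by 0.33, 0.56 and 0.43 on the log2 scale, and it exceeded every GFP array. In pair 4 the log2 change was -0.30, so the groups overlapped. Means were 27.3 ± 4.30 and 36.2 ± 9.73 (SD, n = 4 each), a ratio of 1.32, and the change of 0.25 ± 0.14 did not pass. Without Ptf1a replicate 4 the change was 0.38 ± 0.11 and without Ptf1a replicate 2 it was 0.16 ± 0.13, neither of which passed. The difference of the effect between stages was -0.37 ± 0.19 and did not pass. As mnx1.L was chosen for its NF32 values, neither a weaker nor an equal change at NF36 is read from this difference.

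The mnx1.S copy did not pass in limma on any of its 3 probe sets at either stage, with or without the block, and 0 of these fits had an unadjusted p under 0.05. Xl2.286.1.S1_a_at was the brightest, with 24.4, 15.6 and 22.2 in GFP and 17.2, 30.1 and 19.9 in Ptf1a arrays of NF32. The groups overlapped, and only pair 2 had the Ptf1a array above its partner. The change was 0.06 ± 0.15, and 0.20 ± 0.14 at NF36, where GFP arrays read 15.4, 20.0, 25.4 and 19.4 and Ptf1a arrays 23.0, 31.5, 31.5 and 16.6. Here 3 pairs were higher in Ptf1a and pair 4 lower, the same pair that stood apart for mnx1.L.

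The dimmer mnx1.S probe sets read between 3.3 and 12.6 at NF32 and between 5.4 and 16.4 at NF36. On Xl2.286.1.S1_x_at the change was 0.12 ± 0.10 at NF32 and 0.09 ± 0.10 at NF36, and on Xl2.286.2.S1_x_at it was 0.08 ± 0.13 and 0.11 ± 0.10. All 3 had their largest pair change of NF32 in pair 2, between 0.39 and 0.54, and their only negative one of NF36 in pair 4, between -0.15 and -0.12. After the stage means were subtracted, the 3 probe sets correlated over the 14 arrays with r of 0.92 to 0.93. They were annotated to 1 gene and may share probes, so they are not separate evidence. The ending _x_at marks probe sets with probes that also match other sequences.

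**Figure D2:**
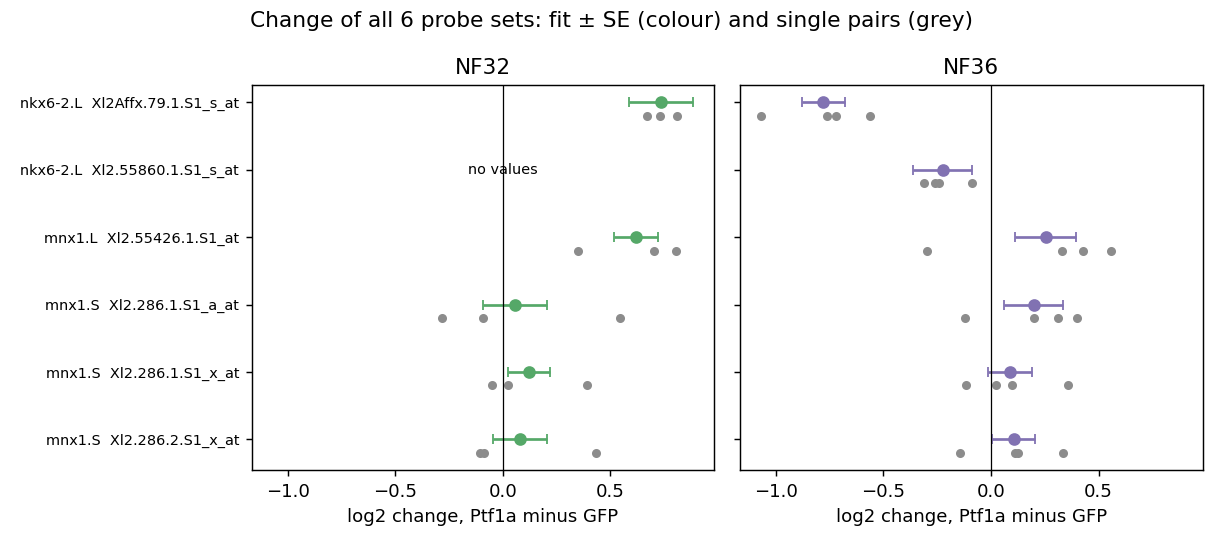
Log2 change, Ptf1a minus GFP (x axis), of the 6 probe sets at NF32 (left) and NF36 (right). Coloured points are the limma estimate ± SE and grey points the single pairs (3 at NF32, 4 at NF36). The Xl2Affx probe set of nkx6-2.L lies at 0.74 on the left and -0.78 on the right, and mnx1.L at 0.62 and 0.25. The 3 mnx1.S probe sets lie at 0.06 to 0.12 on the left and 0.09 to 0.20 on the right.

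nkx6-2.L and mnx1.L were set beside other factors of pancreatic and endocrine progenitors, with each copy given by its brightest probe set. The 24 measured copies include ptf1a, whose mRNA was injected, and the nkx6-2 and mnx1 copies, which were chosen by their changes. Of the other 20 copies, 1 passed higher and 2 lower at NF32, and 3 and 7 did with the pair as a block. Their median log2 change was -0.06, against -0.01 over all probe sets with 1 gene symbol. At NF36 5 of the 20 passed higher and 1 lower, 6 and 4 with the block, with a median of 0.04 against 0.00 for all probe sets with 1 symbol. sox9.L, a factor that keeps pancreatic progenitors in their state, rose at NF32 (0.60 ± 0.08, limma adjusted p = 0.0116) and at NF36 (0.84 ± 0.08, adjusted p = 0.00351). The pioneer factor gene foxa1.L fell at NF32 (-0.69 ± 0.11, adjusted p = 0.0272). The largest NF36 rises among the 20 copies were, besides sox9.L, those of sox9.S (1.21 ± 0.13), neurod1.S (0.98 ± 0.16) and neurod1.L (0.66 ± 0.13).

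Over all 24 copies the NF36 effect minus the NF32 effect had a median of 0.19, against 0.00 over all probe sets. Besides nkx6-2.L, foxa2.L was the only copy of the list with a change above 0 at NF32 (0.01 ± 0.13) and below 0 at NF36 (-0.28 ± 0.14), and it passed at neither stage without the block and at NF36 with it (adjusted p = 0.0221). pax6.L, an islet and neural homeobox factor, had an NF32 change of 1.01 ± 0.24 (adjusted p = 0.0787), from 7.07 ± 7.65 to 29.5 ± 8.76 (SD, n = 3 each), without passing. isl1.S, which encodes a LIM homeodomain factor of islets and motor neurons, went from 16.1 ± 3.65 to 20.4 ± 4.55 (0.18 ± 0.12, adjusted p = 0.567).

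**Figure D3:**
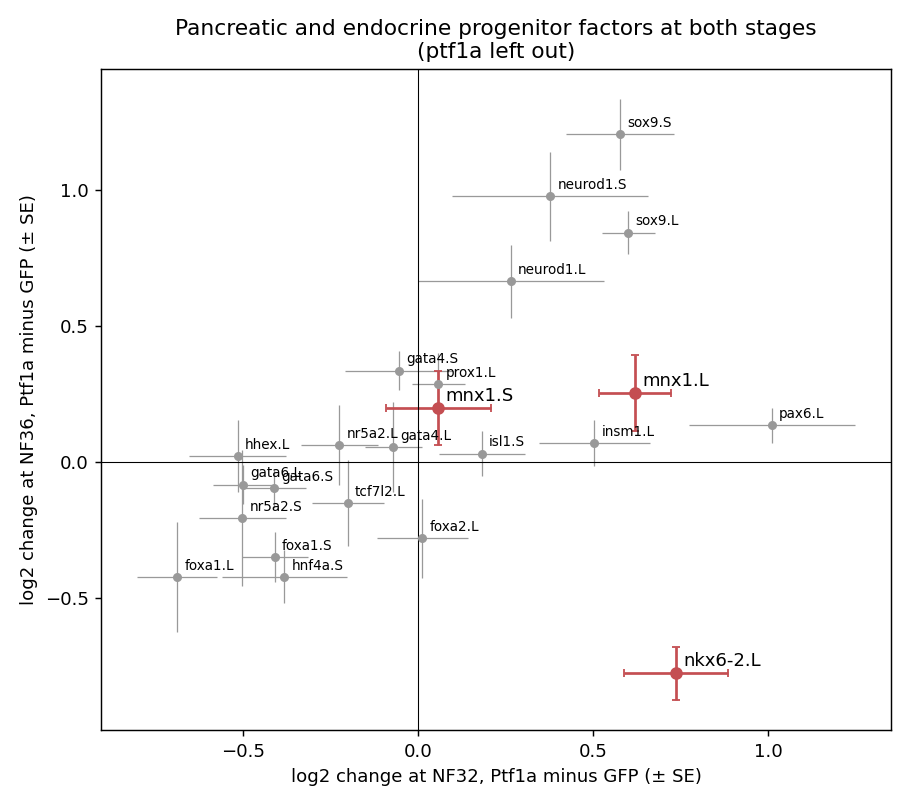
Log2 change at NF32 (x axis) against NF36 (y axis), each Ptf1a minus GFP ± SE, for copies of pancreatic and endocrine progenitor factors, with ptf1a left out because its changes of 3.45 and 1.98 would set the scale. nkx6-2.L lies at the lower right, at 0.74 and -0.78, mnx1.L at 0.62 and 0.25, and mnx1.S at 0.06 and 0.20.

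The NK homeobox family held 6 measured copies of 5 genes. Of the 5 copies besides nkx6-2.L none passed in limma without the pair term at either stage, against 0 at NF32 and 4 higher and 1 lower at NF36 at an unadjusted p under 0.05. With the block 0 of the 5 passed at NF32, and 4 passed higher and 1 lower at NF36. The cardiac and gut factor gene nkx2-5.S went from 68.6 ± 7.96 to 57.8 ± 25.3 (SD, n = 3 each, -0.26 ± 0.25) at NF32 and from 18.5 ± 7.34 to 40.1 ± 17.7 (n = 4 each, 0.67 ± 0.24) at NF36, the opposite signs to nkx6-2.L, and passed at neither stage without the block. nkx2-3.L, a factor of gut mesoderm in the mouse, had changes of -0.28 ± 0.14 and 0.24 ± 0.08. nkx2-1.L, a lung and thyroid factor, had -0.02 ± 0.11 and -0.46 ± 0.20.

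Islet genes were examined because both factors belong to the lineage of the endocrine pancreas. This list, like the others, was chosen with earlier results of these data known. Of 13 measured copies 3 passed higher at NF32, 7 higher and 2 lower with the block. They were the prohormone enzyme genes cpe.L (0.96 ± 0.10, limma adjusted p = 0.00605), cpe.S (0.98 ± 0.16, adjusted p = 0.0286) and pcsk2.L (0.53 ± 0.10, adjusted p = 0.0481), which neurons use as well. The pcsk2.L probe set was very dim, with 1.73 ± 0.58 in GFP and 9.7 ± 3.32 in Ptf1a arrays (SD, n = 3 each). At NF36, where nkx6-2.L was lower, both insulin genes fell, with log2 changes of -1.40 for ins.L and -1.29 for ins.S (adjusted p = 6.77e-04 and 0.00434). No other islet copy passed there, against 2 higher and 3 lower in all with the block. At NF32 ins.L had a change of -0.76 ± 0.19 (adjusted p = 0.0951) and ins.S one of -0.56 ± 0.23 (adjusted p = 0.294), neither of which passed, while with the block ins.L did (adjusted p = 0.0241) and ins.S did not.

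Neuronal markers were far higher in the Ptf1a arrays of NF32, the arrays in which mnx1.L was higher. Of 34 measured copies of general neuron markers 23 passed, all higher, 26 with the block, and all 34 had a change above 0 (median 0.80 against -0.01 for all probe sets with 1 symbol). Their summed intensity was 657 to 774 in GFP and 2692 to 2973 in Ptf1a arrays. None of these markers had a mean of 0, but some were very dim, such as stmn2.L in GFP arrays (3.63 ± 2.17, SD, n = 3). At NF36 4 of 33 passed higher, 9 higher and 2 lower with the block, with sums of 465 to 546 in GFP and 602 to 1130 in Ptf1a arrays. The Ptf1a arrays of NF36, with mnx1.L at 39.5, 46.6, 35.1 and 23.4, had neuronal sums of 1130, 702.5, 649 and 602, so replicate 4 was lowest on both measures while the highest mnx1.L and the highest sum lay in different arrays. Those of NF32, with mnx1.L at 26.2, 37.0 and 34.9, had sums of 2931, 2973 and 2692, so the array with the lowest mnx1.L was not the one with the lowest sum. The part of neuronal RNA in the mnx1.L values was not tested.

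Of 26 listed motor neuron and ventral neural tube genes only 9 were measured, so most of the list could not be seen. Of their 10 copies, 7 were neither nkx6-2 nor mnx1. At NF32 1 of the 7 passed, aldh1a2.L, higher, with and without the block, against 2 higher at an unadjusted p under 0.05. aldh1a2.L encodes a retinoic acid synthesis enzyme that motor neurons share with other tissues and read 193 ± 10.7 in GFP and 270.2 ± 19.5 in Ptf1a arrays (SD, n = 3 each, 0.45 ± 0.08, adjusted p = 0.0366). pax6.L, also in this list, had the largest change of the 7 (1.01 ± 0.24) and did not pass with or without the block. Nor did isl1.S (0.18 ± 0.12) or irx3.L (0.08 ± 0.13). The progenitor gene dbx1.S (0.15 ± 0.10), the proneural gene neurog2.S (0.12 ± 0.10) and the acetylcholinesterase gene ache.L (-0.08 ± 0.08) did not pass. At NF36 none of the 7 passed in limma, against 2 higher at an unadjusted p under 0.05 and 2 higher with the block. Of 5 notochord and floor plate copies none passed in limma at NF32, against 4 higher at an unadjusted p under 0.05 and 3 higher and 1 lower with the block, with sums of 301 to 425 in GFP and 487 to 735 in Ptf1a arrays. Their smallest adjusted p was 0.0514, for the collagen gene col2a1.L (1.04 ± 0.21), which passed with the block (adjusted p = 0.0446).

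**Figure D4:**
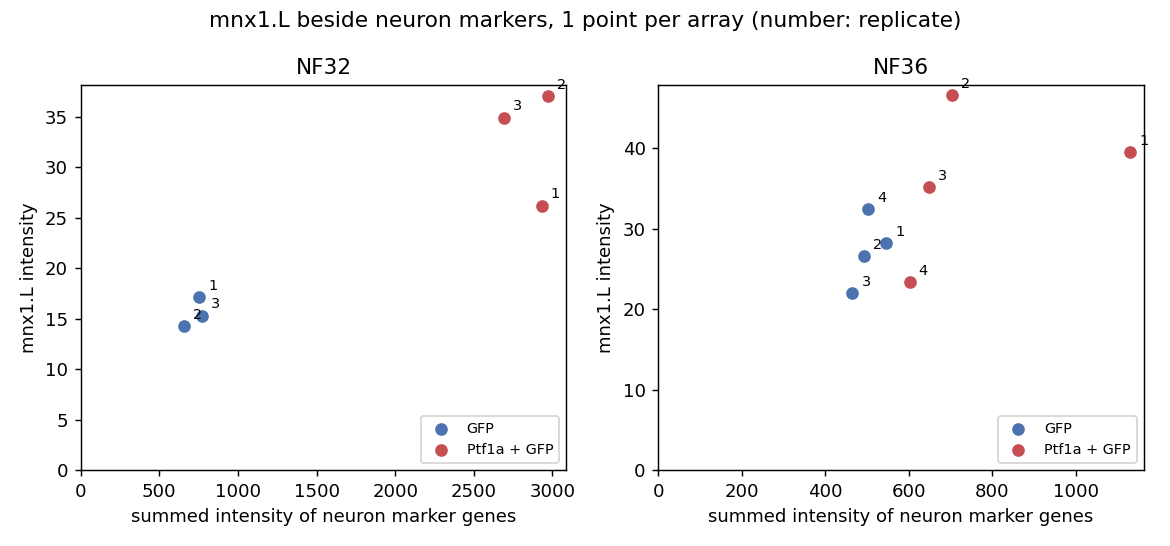
mnx1.L intensity (y axis) against the summed intensity of general neuron markers (x axis), 1 point per array, at NF32 (left, 34 copies) and NF36 (right, 33 copies). Both axes start at 0 and numbers are replicates. At NF32 the groups are apart on both axes, with sums of 657 to 774 and 2692 to 2973, and at NF36 Ptf1a replicate 4 lies among the GFP arrays in mnx1.L.

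Other cell markers also differed at NF36, where nkx6-2.L was lower. Epidermis markers passed higher for 14 of 20 copies, 19 with the block, with sums of 2206 to 3786 in GFP and 6104 to 7692 in Ptf1a arrays. Stomach and intestine markers passed lower for 2 of 16, with 2 higher and 9 lower with the block, and summed to 5094 to 5950 and 2779 to 4165. The 2 were fabp2.L, an intestinal fatty acid binding protein gene (-1.18 ± 0.21), and vil1.S, which encodes villin (-0.96 ± 0.17). A probe set of the list gene sox2.L that is outside this count also passed lower (-0.73 ± 0.16). Blood markers passed lower for 14 of 19 copies at NF32 and 6 of 21 at NF36, 18 of 19 and 20 of 21 with the block. No skeletal muscle copy of 20 passed at either stage in limma, against 14 higher at NF32 and 3 higher and 1 lower at NF36 at an unadjusted p under 0.05, and 1 higher at NF32 and 1 each way at NF36 with the block. At NF32 18 of the 20 muscle copies had a change above 0, with a median of 1.19. Muscle sums there were 2026 to 5616 in GFP and 6875 to 12865 in Ptf1a arrays. At NF36 the muscle median was 0.52, with sums of 1652 to 2274 and 2144 to 5012. None of these lists had a marker with a mean of 0, but some markers were very dim, such as myod1.L in GFP arrays of NF32 (2.1 ± 2.17, SD, n = 3). The part of these lists in the nkx6-2.L change was not tested.

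The profiles of nkx6-2.L and mnx1.L were compared with each other and with 7128 or 7129 brighter named probe sets over the 14 arrays. After the group means were subtracted, nkx6-2.L and mnx1.L correlated with r = 0.23 over 14 arrays, with r = -0.46 over the 6 arrays of NF32 and r = 0.67 over the 8 of NF36. With the stage mean subtracted, the highest r with nkx6-2.L were those of inip.S (0.79), cebpg.L (0.78), sestd1.L (0.78) and both probe sets of the zinc finger factor gene mecom.L (0.77 and 0.76). The mecom.L probe sets had NF36 changes of -0.77 ± 0.14 and -0.78 ± 0.12 but NF32 changes of 0.05 ± 0.16 and -0.02 ± 0.19, so they matched nkx6-2.L at NF36. The lowest r were those of arhgdig.L (-0.92), the quinone reductase gene nqo1.L (-0.91) and akr1c2.L (-0.89), which had NF32 changes below 0 and NF36 changes above 0.

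For mnx1.L the highest r were those of cbfa2t2.S (0.88), both copies of the neuronal filament gene prph (prph.S 0.86, prph.L 0.85), nfe2.S (0.86) and myc.S (0.86). prph.S had changes of 3.16 ± 0.21 at NF32 and 1.12 ± 0.24 at NF36. The lowest r were those of cert1.L (-0.84), tmem106c.L (-0.83) and hectd3.L (-0.83). With group means subtracted, which leaves only the spread among replicates, nkx6-2.L was closest to lap3.L (0.90), enah.L (0.89) and stmn1.S (0.89), and mnx1.L to polrmt.L (0.89), ccz1b.S (0.82) and snapc2.L (0.81). These r are descriptions over arrays that share groups and embryo batches, and the genes were taken as the extremes of all those compared. With only the stage mean subtracted, r also holds the Ptf1a minus GFP differences by which nkx6-2.L and mnx1.L were chosen. A gene with a large change in the same arrays can rank high for that alone, so nothing is read from those names.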

How the data were processed

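Total RNA was measured on 14 one-colour Affymetrix 3' arrays. The deposited table holds 1 linear intensity per probe set and array, scaled by the authors to a common mean within each stage. PLIER is named in the submitters' processing notes, which give no settings. For NF36 the series description names an older chip, yet the identifiers are those of the newer one used at NF32, and this was not settled. Symbols came from the platform annotation. No sequences or chromosome positions were used.

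Values were taken as log2(intensity + 16) and fitted with limma 3.58.1 in R 4.3.3 (lmFit, eBayes, 2-sided, Benjamini-Hochberg over all 22855 or 23614 probe sets). The stage difference was a contrast over 22251 shared probe sets. The fits were tested on simulated data. Precision is limited by 3 or 4 arrays per group. The series description says that same-numbered samples share a batch of embryos. Departures from group means correlated across probe sets with r of 0.30 to 0.71 in NF32 pairs and 0.64 to 0.76 in NF36 pairs. Arrays of different pairs gave r of -0.52 to 0.26 at NF32, the highest near that of pair 2 (0.30), and -0.43 to 0.02 at NF36. Calls of nkx6-2 and mnx1 and the list counts are therefore given with the block as well. Blocked values of other single genes are given for some only.

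Members and gene lists were chosen with earlier results of these data known. From each list up to 4 copies past the threshold per stage were to be named, or the 1 with the smallest p; for marker lists counts are given and fewer names. pax6.L, isl1.S, foxa2.L, gata6.S, darmin.L, krt12.4.S, neurod1.S and neurod1.L were named after their values were seen. The same holds for the non-member NK, motor neuron and neural tube genes. Likeness was Pearson's r with probe sets of 1 symbol above the median level. Alternatives were offsets of 1 and 64, quantile and median scaling, a filter on dim probe sets (below the 40th percentile), the pair as a block, eBayes with trend and robust settings, 1 probe set per gene for the stage difference, and leaving out each array.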

Additional observations from a re-analysis of the deposited data

Results flagged for a closer look

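The effect of Ptf1a on nkx6-2.L (Xl2Affx probe set) had opposite signs at the stages: every Ptf1a array was above its partner in the 3 pairs of NF32 and below it in the 4 pairs of NF36. The difference was -1.51 on the log2 scale (NF36 minus NF32). Of the probe sets measured at both stages, 228 (1.02%) had this pattern of pairs. The NF32 change did not pass without the pair as a block, and the second nkx6-2.L probe set had no NF32 values. The NF32 rise of nkx6-2.L started from GFP values below the lower quartile of their arrays, and its NF36 fall from GFP values at percentiles 80.1 to 84.1. This gene was chosen with the difference known, so the value is a description and nothing is read from its call. No array of the NF36 groups stood apart by Dixon's criterion on any of the 6 probe sets, and groups of 3 were not examined.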

How the results depend on the processing

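nkx6-2.L at NF36 (-0.90 to -0.54 over 7 settings, -0.84 to -0.70 over 8 fits without 1 array) and its stage difference (-2.23 to -0.85 over 7 settings, -1.63 to -1.40 without 1 array) kept their sign. Both values were used in choosing the gene. The stage difference also contains its NF32 value, so nothing is read from its calls at either stage. nkx6-2.L at NF32 missed the threshold as reported and passed with median centring (0.74), the replicate block (0.74) and eBayes with trend and robust settings (0.74), and in none of 6 fits without 1 array (0.62 to 0.85). mnx1.L at NF32 passed in 5 of 6 settings and not with offset 64 (0.28), and ran from 0.56 to 0.72 without 1 array. As mnx1.L was chosen for its NF32 values, nothing is read from these calls. mnx1.L passed in no setting at NF36 (0.13 to 0.36, 0.16 to 0.38 without 1 array) or for the stage difference (-0.65 to -0.15, -0.47 to -0.24 without 1 array). The filter on dim probe sets removed nkx6-2.L and mnx1.L at NF32, so it gave no value there. The block also brought Xl2.55860.1.S1_s_at of nkx6-2.L at NF36 past the threshold (-0.23) and changed no other call of the 6 probe sets.

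The sign of mnx1.S turned where its change was near 0. At NF32 quantile normalization gave -0.036 on Xl2.286.1.S1_x_at and -0.025 on Xl2.286.2.S1_x_at. For the stage difference, quantile normalization gave 0.076 on the first and median centring -0.0052 on the second. Without 1 array, Xl2.286.1.S1_a_at at NF32 ran from -0.082 to 0.16, Xl2.286.2.S1_x_at at NF32 from -0.011 to 0.17, and the stage differences of the 2 dimmer probe sets from -0.088 to 0.044 and from -0.063 to 0.12.

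The number of probe sets that passed was 723 at NF32, 314 without dim probe sets, 2107 with the replicate block and 181 to 564 without 1 array. At NF36 it was 1294, then 769, 5531 and 408 to 1344. For the stage difference it was 173, then 56, 1217 and 45 to 353, and 108 with offset 64. The cause of these shifts was not tested.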
